A study of Homo sapiens with 18 samples.

Results

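7SK is a small nuclear RNA of RN7SK, and it was followed here as the single Ensembl entry ENSG00000202198, 1 of the 60666 gene IDs listed in each of the 3 tables on immunoprecipitated RNA and 1 of the 34429 IDs listed in the table on input RNA. Its values were read in 4 comparisons from RNA immunoprecipitation sequencing, in which RNA bound to a tagged protein is recovered with an antibody and sequenced beside the RNA of the whole lysate (the input). The cells were U373-MG, an established human glioblastoma line, grown in 0.2 mg/ml G418 in every group. They had been transduced with retrovirus carrying an empty vector with an antibiotic resistance gene (control), the FLAG-tagged wild type of ADAR3 (ADAR3 WT, or wild type), or ADAR3 with a mutated R-domain (R-mutant). The 18 libraries form 6 groups of 3 replicates, an input and an immunoprecipitate (IP) group for each of the 3 genotypes, and UV light at 150 mJ/cm2 was used to crosslink every group. The ADAR3 in these cells was expressed from an introduced gene, and the labels do not name the promoter, state the change made in the R-domain, or say whether replicates came from separate cultures. Measures of error therefore cover the spread among these libraries and nothing more, and that spread may be technical.

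7SK is transcribed by RNA polymerase III and is one of the abundant noncoding RNAs of the nucleus. It acts as the scaffold of the 7SK ribonucleoprotein: MEPCE caps its 5′ end, LARP7 binds its 3′ end, and HEXIM1 or HEXIM2, bound to the RNA, holds the kinase complex P-TEFb (CDK9 with cyclin T) in an inactive state. Release of P-TEFb from 7SK frees the kinase to phosphorylate paused RNA polymerase II and its pausing factors, which allows productive elongation. HEXIM1 contacts 7SK through an arginine-rich stretch. ADAR3, a brain-enriched relative of the adenosine deaminases that edit double-stranded RNA, has no known editing activity of its own, and it carries double-stranded RNA-binding domains and an arginine-rich R-domain that can bind single-stranded RNA.

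In the RefSeq annotation of GRCh38.p14, RN7SK is a single small nuclear RNA gene of 332 bases at chr6:52995620-52995951. It overlaps 0 other annotated genes. The nearest annotated gene on the side of lower coordinates is GSTA4, which codes for a glutathione transferase and ends 335 bases away, and on the other side CILK1, a kinase gene, begins 5351 bases away. The same annotation lists 293 pseudogenes named as copies of 7SK (RN7SKP), spread over 24 chromosomes, with lengths from 62 to 4301 bases and a median of 280 bases. Of these, 100 are at least 300 bases long, close to the length of 7SK itself. Reads that match 7SK and a near copy equally well could be divided between entries or dropped, depending on counting settings not given in the sources used here, so the level of 7SK carries that uncertainty. Neither the deposited tables nor the annotation used here pairs Ensembl IDs with symbols, so these copies were not looked up in the tables. A newer Ensembl entry for 7SK, ENSG00000283293, was listed with a mean of 0 in all 3 IP tables and was not listed in the input table. In the IP tables the newer entry thus held no counts, and the values given here for 7SK are those of the older entry. If both entries cover the same bases in the annotation used for counting, reads there could also have been dropped under some counting settings. Whether the older entry holds all the 7SK reads was not tested.

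The mean normalized count of 7SK, which is the authors' average over the libraries of each comparison, was 128 for wild type against control, 125 for R-mutant against control, 113 for R-mutant against wild type and 158 for input. These means were of similar size in all 4 comparisons. In input, 2539 other genes had a mean within 2-fold of that of 7SK. It was thus counted no more often than many other RNAs, although it is abundant in the nucleus. Whether part of its reads was lost in library preparation or counting was not tested, so the fold changes are those of the counted reads. They are averages over genotypes, so they do not give the level in any 1 genotype, and values per library were not analysed here. A single fold change from the authors' model therefore stands for each group comparison, and its standard error (SE) gives the spread.

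The IP enrichment of 7SK was lowest in the R-mutant. IP enrichment is the ratio of IP to input counts, each IP fold change is read as the change of that ratio between genotypes, and it is relative to the other RNAs because counts were normalized between libraries. In the authors' deposited table for R-mutant against control, 7SK stood at a log2 fold change of -3.47 ± 0.54 (SE, 3 libraries per group). This is 11.1-fold lower IP enrichment, with a 95% interval from 5.31-fold to 23.1-fold lower. In the authors' deposited table for R-mutant against wild type it was -2.41 ± 0.44, or 5.33-fold lower, with an interval from 2.92-fold to 9.71-fold. In the authors' deposited table for wild type against control it was -1.05 ± 0.54, or 2.07-fold lower, and the 95% interval on the log2 scale ran from -2.11 up to 0.00. By point estimate the order of IP enrichment was thus control, ADAR3 WT and R-mutant, from highest to lowest. The empty vector supplies no tagged ADAR3, so the control IP is read as background recovery. The control value is therefore no measure of binding to ADAR3, and values below it show no binding above background. The step from control to ADAR3 WT reached the limit of its error, while the step from ADAR3 WT to R-mutant was several times its error.

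These IP values are a description and not a test, because 7SK was chosen for them. It was chosen by its fold change between the ADAR3 genotypes, as the 1 gene of 23385 with a Benjamini-Hochberg adjusted p under 0.05 in R-mutant against wild type, at 0.00111 by a normal test of the DESeq2 log2 fold change over its SE. That 1 gene is 0.00428% of the genes tested there. Under the same rule 14.1% of genes differed and 8.14% had lower IP enrichment for wild type against control, and 13.3% differed and 7.95% were lower for R-mutant against control. Lower values against control were therefore shared with many other RNAs, and nothing about 7SK is read from those shares. Over all tested genes, fold over SE had a standard deviation of 0.659 in R-mutant against wild type. It was 1.98 for wild type and 1.93 for R-mutant when each was set against control. Folds between the ADAR3 genotypes thus spread less than their SEs, so the shares of the 3 comparisons are not directly comparable.

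**Figure D1:**
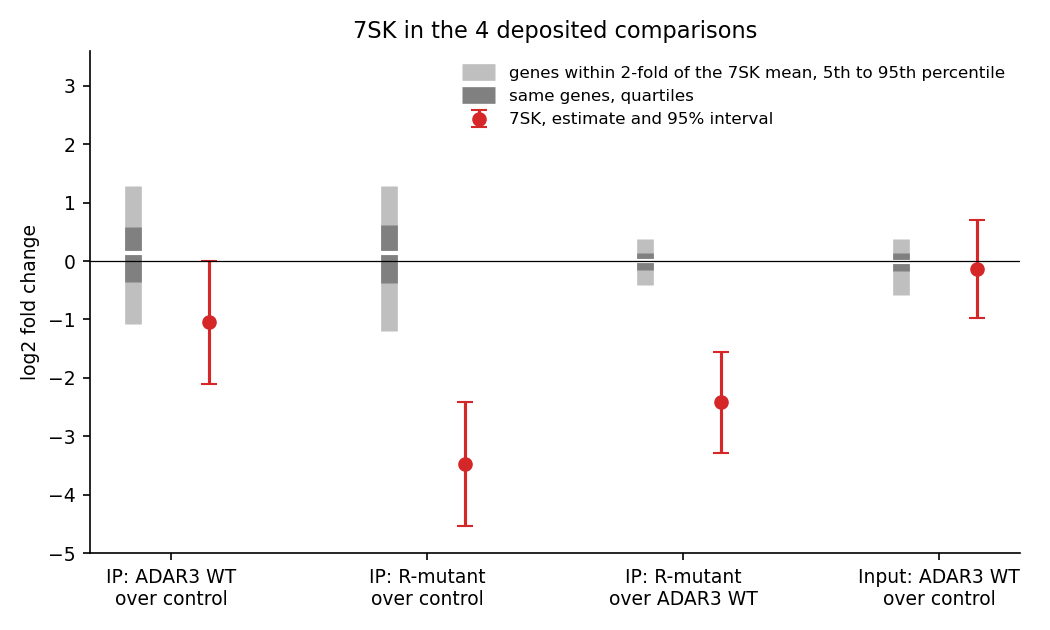
Log2 fold change of 7SK in the 4 deposited comparisons (red points, with 95% intervals from the authors' standard errors) beside genes whose mean normalized count lay within 2-fold of that of 7SK (light grey, 5th to 95th percentile; dark grey, quartiles; white line, median). 7SK lay below the 5th percentile in both R-mutant comparisons, close to it in wild type against control, and within the quartiles in input.

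In the input RNA, 7SK showed no detectable difference between ADAR3 WT and control. The gene was not chosen on this comparison itself, and so it was tested. The ADAR3 WT input libraries also enter R-mutant against wild type when that fold is read as a change of IP over input. The test is therefore not fully independent of the choice. For wild type against control the log2 fold change in the authors' deposited input table was -0.14 ± 0.42 (SE, 3 libraries per group), a ratio of 0.91 with a 95% interval from 0.511 to 1.62. The unadjusted p was 0.748 and the adjusted p was 1, by a two-sided normal test of the DESeq2 log2 fold change over its SE. In that comparison 0.289% of 20411 genes passed. The interval thus reached from 1.96-fold lower to 1.62-fold higher, and differences inside it could not be resolved. Input of the R-mutant was in no table analysed here. Whether the lower IP over input ratio of the R-mutant lay in the IP, in the input or in both cannot be told apart from these values.

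The 3 IP fold changes of 7SK are not separate measurements, since each genotype enters a pair of them. Subtracting the fold change of wild type against control from that of R-mutant against control gave -2.42 for 7SK, against -2.41 in the direct comparison. The value for R-mutant against wild type thus repeats the difference of the other values to within 0.00262. The SEs of the 3 comparisons can be divided among the genotypes if the errors of the genotypes are independent and alike in each table. On that basis the SE of the log2 IP over input ratio of 7SK was 0.44 in control, 0.31 in ADAR3 WT and 0.32 in R-mutant. The control carried the widest error of the 3. The medians over the 13431 genes whose mean reached 50 in every IP comparison were 0.22, 0.14 and 0.17 in the same order.

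Set against RNAs counted at a similar depth, 7SK stood near the lower end in both R-mutant comparisons. In R-mutant against control, 2737 other genes had a mean within 2-fold of that of 7SK, from 62.7 to 251. The middle 90% of their log2 fold changes ran from -1.19 to 1.29, and 6 of them (0.219%) lay below 7SK. In R-mutant against wild type, the middle 90% of 2730 such genes ran from -0.41 to 0.37. Here 1 of them lay below 7SK. That gene, ENSG00000275110, was named after its value was seen, and in the authors' deposited table it stood at -3.26 ± 1.98 on the log2 scale, with a far wider SE than 7SK. In wild type against control, 145 of 2681 such genes (5.41%) lay below 7SK, and in input 739 of 2539 (29.1%) did. 7SK was thus well inside the range of its peers in input, at the edge of it in wild type against control, and outside the bulk of it wherever the R-mutant was compared.

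**Figure D2:**
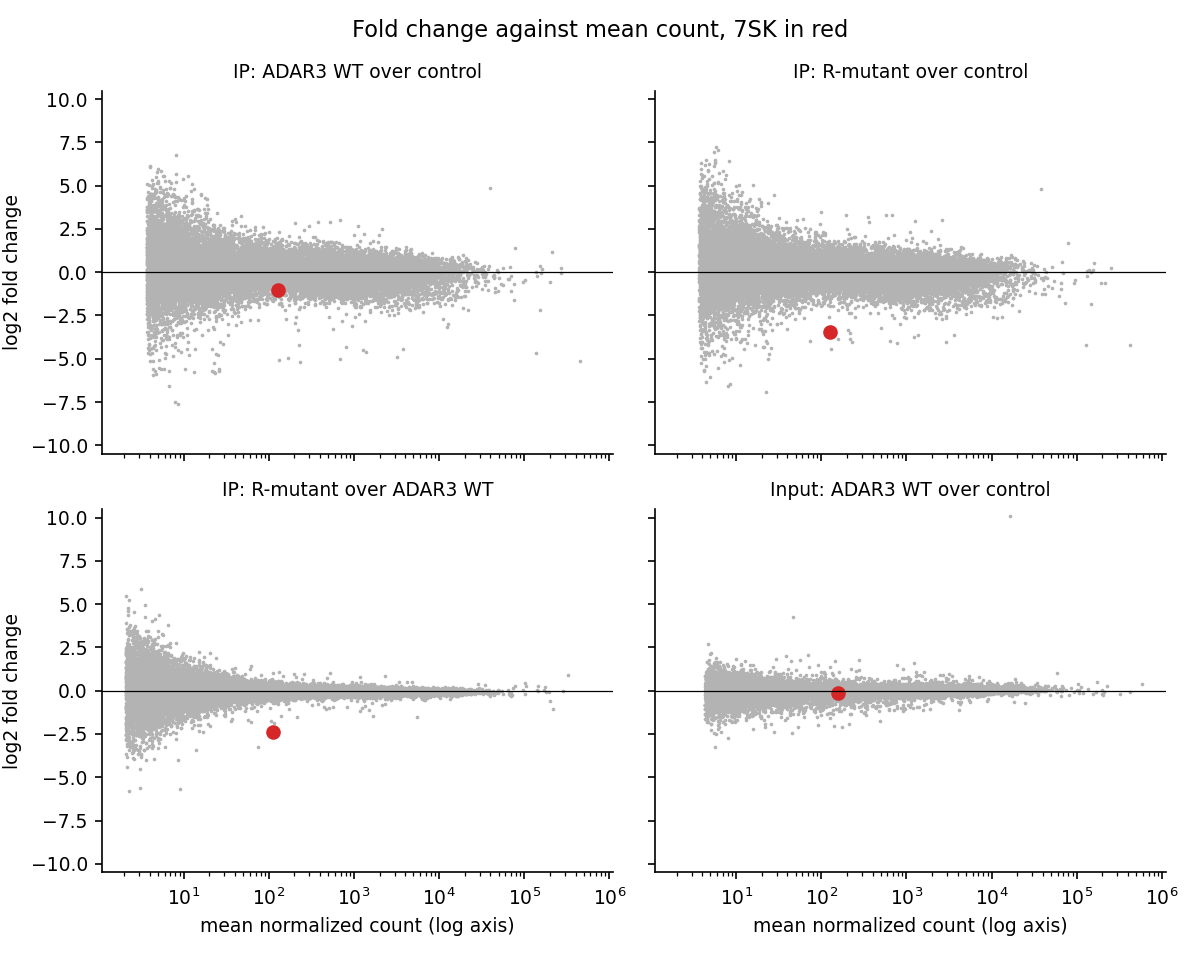
Log2 fold change against mean normalized count (log axis) for every tested gene (grey) in each of the 4 comparisons, with 7SK in red. Folds as far below 0 as that of 7SK in the R-mutant comparisons came mostly from genes with low means.

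Among all tested genes 7SK also stood near the lower end in both R-mutant comparisons, and less so in wild type against control. In R-mutant against control, 107 of the other genes had a lower log2 fold change than 7SK, and in R-mutant against wild type 128 did. Most of these were thinly counted RNAs. Their median mean count was 6.82 in the first comparison and 2.91 in the second, with median SEs of 1.75 and 1.94 on the log2 scale. Restricting to genes with a mean of at least 50 left 14 genes below 7SK in R-mutant against control and the 1 gene named above in R-mutant against wild type. In wild type against control, 1946 genes (9.21%) lay below 7SK, 813 of them with a mean of at least 50.

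When each fold change was divided by its SE, 7SK had the lowest value of all 23385 genes in R-mutant against wild type, at -5.46. An extreme place here was fixed by the choice of the gene, which used this same statistic, and is given as description only. The next 5 genes ran from -4.57 to -3.87, and the highest gene of the table stood at 3.63. These 5 genes had higher means than 7SK, from 467 to 5480, and smaller log2 fold changes, from -1.52 to -0.86. They also differed from 7SK against the empty vector. None of the 5 had a log2 fold change below 0 in wild type against control, where they ran from 0.01 to 1.48, while 7SK was at -1.05. The low R-mutant to ADAR3 WT ratio of 7SK was thus paired with point estimates below control in both ADAR3 genotypes. Its interval in wild type against control reached 0.00. That pairing was not seen in the 5 genes ranked next. Being below control in both was not particular to 7SK, since the 8 genes with the most similar IP values, described below, were too. Those genes were picked on these same fold changes, so their sharing of it is a description only. In R-mutant against wild type, 2 of the 8 were at -1 or lower. In R-mutant against control, 144 genes (0.682%) had a lower fold over SE than 7SK at -6.41, and in wild type against control 2841 (13.5%) were lower than its -1.96.

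**Figure D3:**
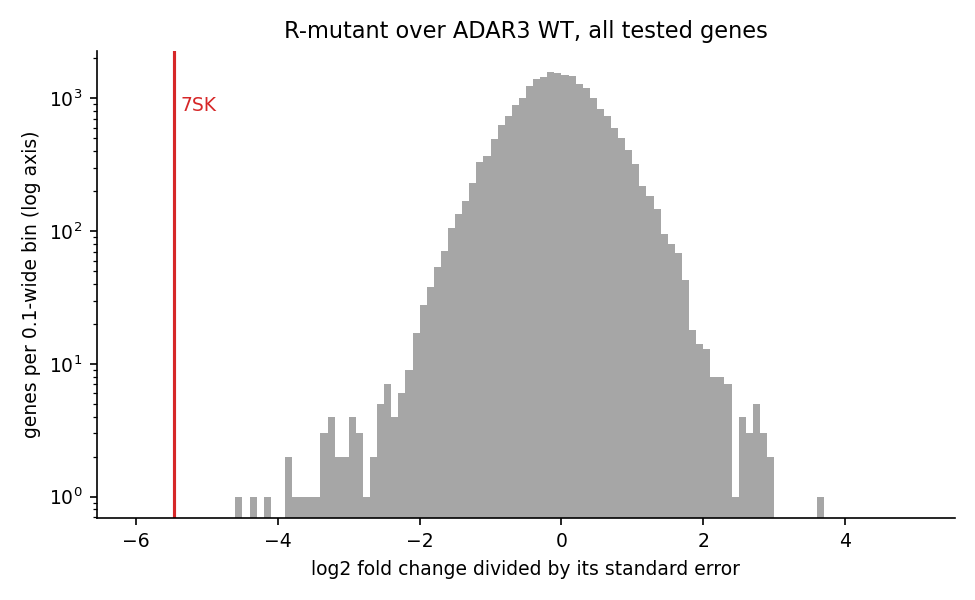
Histogram of log2 fold change divided by its standard error over all 23385 tested genes in R-mutant against wild type, with genes per bin on a log axis. The red line marks 7SK, which was chosen by this statistic, at -5.46, and the other genes lie between -4.57 and 3.63.

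The test statistic that the authors deposited gave 7SK another place. The IP tables are named as likelihood ratio results. Where the statistic was above 0 and the p-value away from its extremes, every deposited p-value lay within a relative 0.005 of that of chi-square with 7 degrees of freedom, so the statistic covers more terms than the fold change between genotypes. It was below 0 for 2802, 1932 and 2132 IDs for wild type against control, R-mutant against control and R-mutant against wild type, values a likelihood ratio cannot take, and the cause was not tested. For 7SK it was 17.7 in wild type against control, 76.2 in R-mutant against control and 126 in R-mutant against wild type in the authors' deposited tables. In the same order, 8487, 1392 and 1971 genes had a larger statistic. In R-mutant against wild type, where 7SK had the lowest fold over SE, 51.1% of all tested genes passed the authors' adjusted p under 0.05. That share was 43% for wild type and 40.8% for R-mutant when each was set against control. The rank of 7SK in that comparison therefore depends on which of these statistics is read.

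7SK was measured with more error than most RNAs of similar mean count. Its SE was larger than that of 93.8% of genes within 2-fold of its mean in wild type against control, 92.4% in R-mutant against control, 93.8% in R-mutant against wild type and 95.9% in input. In input the SE of 0.42 compares with a median of 0.27 among its 2539 peers, and in R-mutant against wild type the SE of 0.44 compares with a median of 0.34. The authors' model thus gave 7SK a wider error than a typical RNA counted as often, in the input as well as in the IP comparisons. The position of 7SK in R-mutant against wild type was reached with this wide error, not with a narrow one.

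**Figure D4:**
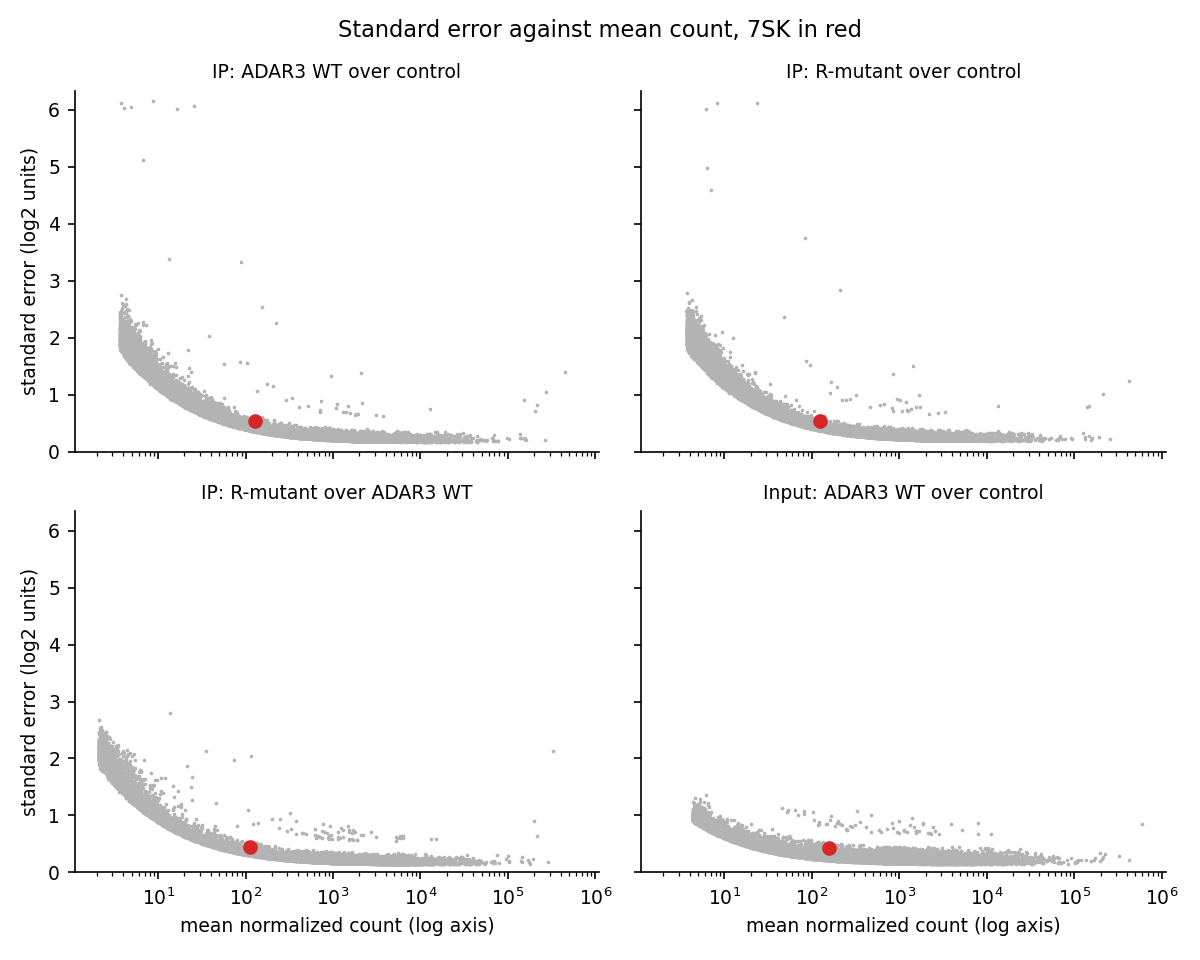
Standard error of the log2 fold change against mean normalized count (log axis) for every tested gene (grey) in each comparison, with 7SK in red. 7SK lies in the upper part of the band at its mean, with standard errors between 0.42 and 0.54.

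Genes with the most similar IP values were sought as those with the smallest Euclidean distance to 7SK over the 3 IP log2 fold changes, among 13430 other genes whose mean reached 50 in each. The nearest was ENSG00000200312, at a distance of 1.32. In the authors' deposited tables it had log2 fold changes of -2.03 ± 0.50 in wild type against control, -3.53 ± 0.48 in R-mutant against control and -1.52 ± 0.46 in R-mutant against wild type. Against control, this ID had a value near that of 7SK in the R-mutant and a lower one than 7SK in ADAR3 WT. Its symbol was not looked up, so whether it is a copy of 7SK that shares reads with it was not tested. In the authors' deposited input table it stood at 0.37 ± 0.41. The other 7 of the 8 nearest genes, at distances up to 2.32, ran from -2.77 to -1.02 in wild type against control and from -3.96 to -1.96 in R-mutant against control. Their R-mutant against wild type values, from -1.20 to -0.53, all lay above the -2.41 of 7SK. That was all but fixed in advance, since only 1 gene with a mean of at least 50 lay below 7SK in that comparison. With the nearest gene at a distance of 1.32, no gene of this depth came within 1 log2 unit of 7SK. Distances rest on the depth filter: with genes down to a mean of 20 admitted, 1 of the 8 nearest genes was shared with this set, and ENSG00000200312 was no longer the nearest.

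**Figure D5:**
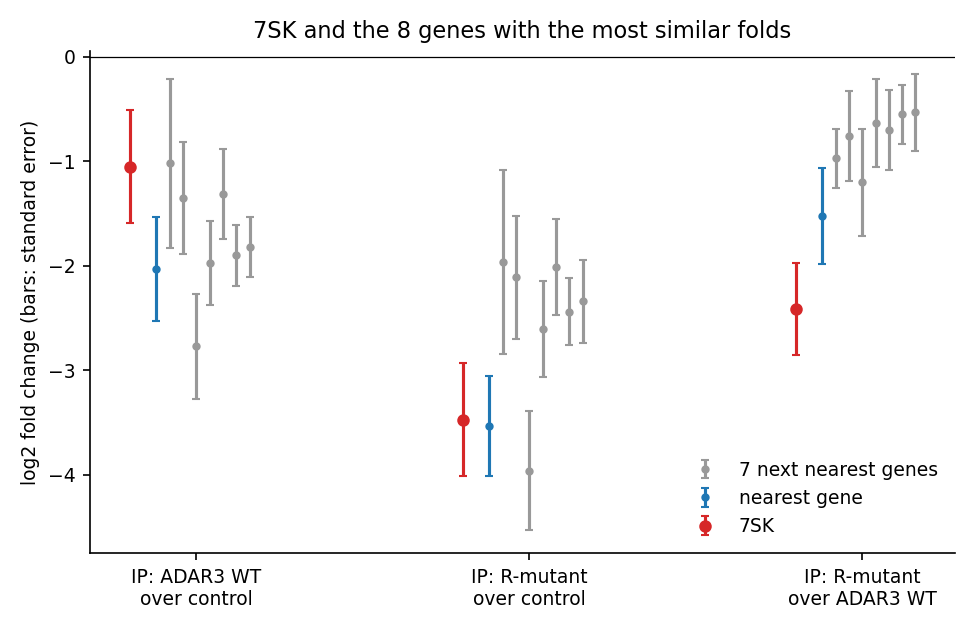
Log2 fold changes in the 3 IP comparisons, with standard errors as bars, for 7SK (red), the nearest gene ENSG00000200312 (blue) and the other 7 of the 8 nearest genes (grey). Their values run from -2.77 to -1.02 in wild type against control, and all 8 lie above 7SK in R-mutant against wild type, the comparison by which 7SK was chosen.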

How the data were processed

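STAR 2.7.7a, featureCounts, DESeq2 and GRCh38 are listed in the submitters' processing notes, with the annotation and model formula not given in the sources used here. From these the authors deposited 4 comparison tables. Per the file headers these hold a mean signal (mean of normalized counts), a log2 fold change and its SE, a test statistic (a score with no fixed range) and p-values. Another 6 columns of the input table hold values per library under names found in no label and were left out, so depth per library is unknown. Per the labels' protocols, libraries were depleted of ribosomal RNA and amplified for 15 PCR cycles, from 1 ug of total RNA for input.

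The gene, the rules and the lists were chosen with earlier results of these data known. Computed here, with Python 3.11.15, numpy 2.4.6, scipy 1.17.1 and pandas 2.3.3, were 95% intervals, ranks, distances and a two-sided normal test of fold over standard error. That test was adjusted by Benjamini-Hochberg over genes with a deposited adjusted p. It was run on folds simulated with normal errors of the deposited size, which cannot show whether the deposited standard errors suit the real data. Reading the IP folds as changes in the ratio of IP over input is an assumption, since the table names give genotypes and likelihood ratio results only. It rests on slopes on the input fold among genes with an input mean under 10. These were -0.79 (wild type against control) and 0.48 (R-mutant against wild type). No slope was computed for R-mutant against control.

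Named genes were 7SK, the genes nearest to it in pattern, and the 5 next to it in rank, of which at most a pair of IDs is printed because no symbols could be attached. The 8 planned lists, which included the 7SK ribonucleoprotein, polymerase III RNAs and 7SK pseudogenes, and the check of glioblastoma markers were not run, since they were fixed by symbol. No sequence is printed, because the promoter table used here has 0 entries for RN7SK.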

Additional observations from a re-analysis of the deposited data

How the results depend on the processing

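The 7SK log2 fold changes moved by less than their standard errors under every centring tried, to between -1.19 and -1.06 for wild type against control, -3.61 and -3.50 for R-mutant against control, -2.41 and -2.40 for R-mutant against wild type, and -0.17 and -0.12 for input. These and the separate-table difference for R-mutant against wild type kept the direction of each 7SK value, and the input adjusted p stayed at 1 under each of its alternatives. For wild type against control the adjusted p of 7SK lay on opposite sides of 0.05, at 0.199 by the normal test of the DESeq2 fold and 0.0331 in the authors' deposited table, whose test covers more terms. The numbers of genes called moved more. With the authors' adjusted p, 9080, 8626 and 11947 genes passed for wild type against control, R-mutant against control and R-mutant against wild type, where 2986, 2814 and 1 passed by the normal test. At an adjusted p under 0.01, stricter by construction, they were 1823, 1681 and, for input, 37 against 59. With a mean of at least 50, 2 genes were called in R-mutant against wild type, since fewer genes were tested. With a mean of at least 20, the 8 nearest patterns shared 1 gene with those reported. No paired analysis was possible because values per library could not be matched to the labels, and for the same reason leaving out replicates and other count models were not run.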

Other observations

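The relation between the 3 IP tables seen for 7SK held across the transcriptome. Over 13431 genes whose mean was at least 50 in each, the direct log2 value of R-mutant against wild type differed from the difference of the values against control by a median of -0.0135, with quartiles of -0.0138 and -0.0133. 7SK lay 0.0161 from that median, well outside the quartiles, and 68 of the 13430 other genes lay at least as far from it. Its gap was thus wider than that of most genes, though small beside its SE of 0.44 in R-mutant against wild type.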
